A study of Mus musculus with 10 samples.

Results

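Knockouts of L3mbtl2 and of Pcgf6, genes for different subunits of the same Polycomb complex, were compared directly in mouse embryonic stem cells. The members of the comparison were the 2 libraries titled L3mbtl2KO (genotype L3mbtl2-/-) and the 2 titled Pcgf6KO (genotype Pcgf6-/-), 4 of the 10 libraries of the series. All came from C57BL/6 embryonic stem cells. The 3 wild type libraries of the same strain are shown as reference levels, and they also enter the variance estimate of the test. The 3 Mga-/- libraries of the series were left out of the test. No drug, dose or time point separates the groups. Replicates are numbered, but nothing says whether they were separate cultures, clones or preparations, so that the p-values measure the spread between these libraries, which may be technical.

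PRC1.6 is the variant of Polycomb repressive complex 1 built around PCGF6, a RING finger scaffold that pairs with the histone H2A ubiquitin ligases RING1 and RNF2. It is brought to promoters by the dimers MGA with MAX, which reads the E-box letters CACGTG, and E2F6 with TFDP1, while L3MBTL2 is an MBT domain protein that binds histone tails and nucleosomes. In embryonic stem cells the complex is known for keeping genes of germ cells and meiosis silent. Knocking out either subunit therefore asks, of the same complex, which genes depend more on the scaffold and which on the MBT protein.

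The letters read by MGA with MAX stood in the promoters of germ cell genes on both sides of the comparison. RefSeq promoters of GRCm38.p6 could be matched to 8056 of the tested genes, and the 250 bases upstream of the start held CACGTG (its own reverse complement, so the same on both strands) in 8.78% of them. Of 49 matched members of the 5 germ cell lists, 14 held it, or 28.6%. The share was 8 of 18 (44.4%) among members that were higher in the Pcgf6 knockout and 5 of 25 (20%) among members higher in the L3mbtl2 knockout. Among all genes that differed at least 2-fold, it was 8.11% of 678 higher in the Pcgf6 knockout and 6.67% of 645 higher in the L3mbtl2 knockout. The E2F-type letters GCGGGAA or, on the other strand, TTCCCGC were in 7.17% of all windows and 16.3% of the germ cell windows. A match describes the letters only.

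The 130 bases before the start are shown for 3 genes that were higher in the Pcgf6 knockout (Fkbp6, Hormad1, Tdrd1) and 3 that were higher in the L3mbtl2 knockout (Taf7l, Taf9b, Stk31), to show that the same letters, in capitals, occur in both. They lie at chr5:135350045-135350174 (minus strand), chr3:95559547-95559676 (plus), chr19:56826079-56826208 (plus), chrX:134476491-134476620 (minus), chrX:106221159-106221288 (minus) and chr6:49395474-49395603 (plus), in that order. All are written 5′ to 3′ on the gene's strand and end at the base before its start. Hormad1, Tdrd1 and Stk31 were picked for this after their values were seen.
Fkbp6: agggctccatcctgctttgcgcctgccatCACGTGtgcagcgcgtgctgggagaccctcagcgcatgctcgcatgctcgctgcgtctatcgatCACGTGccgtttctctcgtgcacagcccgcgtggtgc
Hormad1: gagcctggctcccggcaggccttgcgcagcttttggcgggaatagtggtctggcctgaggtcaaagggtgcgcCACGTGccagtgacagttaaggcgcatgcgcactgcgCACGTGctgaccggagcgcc
Tdrd1: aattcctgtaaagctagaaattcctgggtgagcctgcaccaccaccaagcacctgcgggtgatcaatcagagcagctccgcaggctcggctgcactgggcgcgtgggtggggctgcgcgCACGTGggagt
Taf7l: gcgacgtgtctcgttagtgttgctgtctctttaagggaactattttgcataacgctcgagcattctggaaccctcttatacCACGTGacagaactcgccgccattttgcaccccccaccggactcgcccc
Taf9b: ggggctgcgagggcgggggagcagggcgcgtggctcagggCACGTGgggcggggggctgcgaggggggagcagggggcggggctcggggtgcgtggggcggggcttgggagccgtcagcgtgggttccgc
Stk31: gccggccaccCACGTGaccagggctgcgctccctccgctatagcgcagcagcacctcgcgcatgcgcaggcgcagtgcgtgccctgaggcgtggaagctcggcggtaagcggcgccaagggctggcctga

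Counting back from -1, the base before the start, the first base of the letters was at -101 and -37 in Fkbp6, -57 and -20 in Hormad1, and -11 in Tdrd1. In Taf7l it was at -49, in Taf9b at -90 and in Stk31 at -120.

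Depth and replicate agreement were similar in both knockouts. Levels are FPKM, fragments scaled to gene length and library size. Read depth in megareads (M), recovered from the steps in the FPKM values, was 23.7 M and 23 M in the L3mbtl2 knockout, 23.2 M and 19.4 M in the Pcgf6 knockout and 23.9 M to 26.7 M in wild type. The median SD of log2 values between replicates was 0.06 in each knockout, and the replicates correlated across genes at r of at least 0.979. The stem cell markers Pou5f1 and Nanog were high in all 4 knockout libraries. Pou5f1, the gene for OCT4, stood at 131 and 135 FPKM in the L3mbtl2 knockout and 156 and 167 in the Pcgf6 knockout, against 110 to 133 in wild type. It was named after its values were seen. Genes on whole chromosomes were displaced: the median log2 difference between the knockouts was 0.66 on chromosome 1, where the L3mbtl2 knockout lay 0.75 above wild type, and 0.41 on chromosome 11 and 0.27 on chromosome 16, where the Pcgf6 knockout lay 0.32 and 0.30 below wild type. The L3mbtl2 knockout also followed transcript GC content. Its median difference from wild type was 0.49 in the decile of genes lowest in GC and -0.30 in the highest decile. Between the knockouts the median difference went from 0.42 to -0.32 over the same deciles. The part of either in the results was not tested gene by gene, but values adjusted for GC content, or without chromosomes 1, 11, 16 and Y, are given where they bear on a list.

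**Figure D1:**
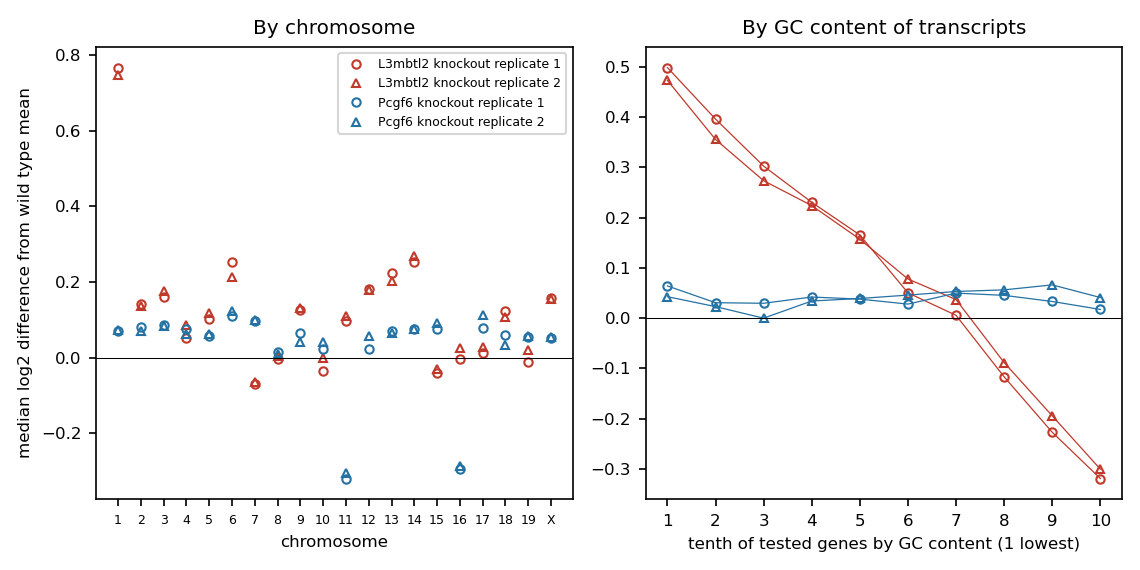
Median log2 difference of each knockout library from the wild type mean, by chromosome (left) and by decile of tested genes in transcript GC content (right); circles are replicate 1 and triangles replicate 2. Both L3mbtl2 knockout libraries are raised on chromosome 1 and fall with GC content, and both Pcgf6 knockout libraries are lowered on chromosomes 11 and 16 and flat with GC content. The Y chromosome is not drawn.

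The deleted genes followed their labels. L3mbtl2 (ENSMUSG00000022394, chr15:81663889-81688315 on GRCm38) was measured at 3.72 and 3.49 FPKM in its own knockout, at 20.6 and 21 in the Pcgf6 knockout and at 19.8 to 20.5 in wild type. Pcgf6 (ENSMUSG00000025050, chr19:47033617-47050906) was measured at 9.56 and 9.82 FPKM in its own knockout, at 34.5 and 32.8 in the L3mbtl2 knockout and at 27.6 to 29.7 in wild type. In limma the differences, given throughout as the L3mbtl2 knockout minus the Pcgf6 knockout, were -2.50 ± 0.05 (log2, SE, adjusted p = 1.51e-07) and 1.78 ± 0.05 (adjusted p = 4.47e-07). Neither transcript was absent from its knockout. The values sum all exons of a gene, and the labels do not say which exons were deleted.

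The knockouts of these partners gave widely different transcriptomes. limma on log2(FPKM + 0.1) called 9975 of 14944 tested genes different (66.7%, adjusted p under 0.05), 5415 higher in the L3mbtl2 knockout (36.2%) and 4560 higher in the Pcgf6 knockout (30.5%). Since a call was this common, the text leads with genes that also differed at least 2-fold. Those were 2788 genes (18.7%), of which 1403 were higher in the L3mbtl2 knockout (9.39%) and 1385 higher in the Pcgf6 knockout (9.27%). Outside chromosomes 1, 11, 16 and Y the counts were 890 (7.22%) and 1229 (9.98%) of 12320. Adjustment for GC content left 1175 (7.89%) and 1288 (8.65%) of 14884. The median difference over all tested genes was 0.07. Both libraries of 1 knockout lay above both of the other in 12608 of the tested genes (84.4%), so groups without overlap were the rule. Counts of called list members below are to be set beside the 36.2% and 30.5% of all tested genes. Those past 2-fold are to be set beside 9.39% and 9.27%.

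Most of the large differences were departures of the L3mbtl2 knockout from wild type. Of the 1403 genes at least 2-fold higher in the L3mbtl2 knockout, 843 (60.1%) were at least 2-fold above wild type there while the Pcgf6 knockout stayed within 2-fold of wild type. A further 141 (10%) were above wild type in both knockouts, and 73 (5.2%) were below wild type in the Pcgf6 knockout alone. Of the 1385 genes at least 2-fold higher in the Pcgf6 knockout, 780 (56.3%) were below wild type in the L3mbtl2 knockout alone. A smaller group of 215 (15.5%) was above wild type in the Pcgf6 knockout alone. Both positions use the same wild type libraries, are not adjusted for GC content or chromosome, and are given as a description. Chromosome 1, where the L3mbtl2 knockout lay 0.75 above wild type, held 236 of the 1403 genes and 35 of the 1385.

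**Figure D2:**
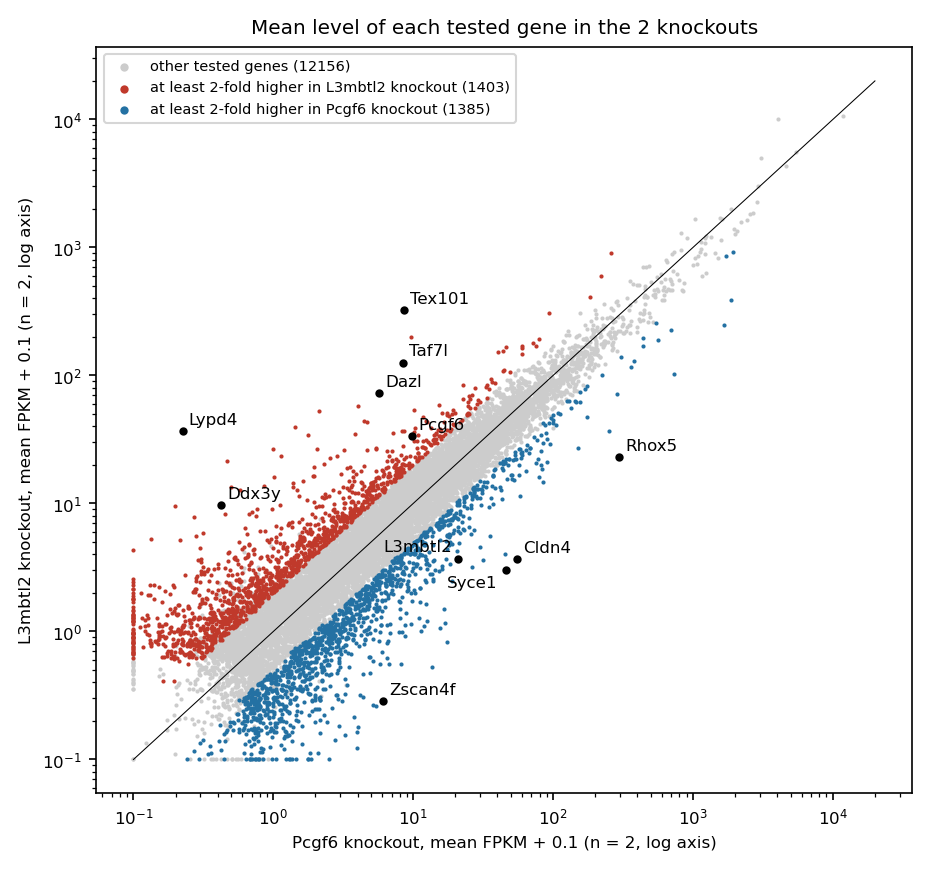
Mean FPKM + 0.1 of each tested gene in the Pcgf6 knockout (horizontal) and the L3mbtl2 knockout (vertical), n = 2 libraries each, on log axes. The 1403 genes at least 2-fold higher in the L3mbtl2 knockout lie above the diagonal and the 1385 higher in the Pcgf6 knockout below it, with Tex101, Lypd4, Rhox5 and Zscan4f among the farthest.

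Several germ cell genes were among the 15 largest differences toward the L3mbtl2 knockout. Tex101, a surface protein of male germ cells, stood at 319 and 329 FPKM in the L3mbtl2 knockout, 8.94 and 8.10 in the Pcgf6 knockout and 0.50 to 0.82 in wild type. Lypd4, a related protein of testis, stood at 36.2 and 37.2 against 0.06 and 0.19 FPKM. The Lypd4 values came from 2378 reads in the L3mbtl2 knockout and 7 in the Pcgf6 knockout, a depth-corrected ratio of 309 with a counting interval of 150 to 770 (95%, counting error only). Both genes were also higher in the Pcgf6 knockout than in any wild type library. The 15 largest were picked only among genes without overlap between the knockouts, so that trait is no further support. The log2 differences were 5.23 ± 0.17 (adjusted p = 7.77e-07) for Tex101 and 7.42 ± 0.30 (adjusted p = 1.73e-06) for Lypd4.

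Dmrtc2, a testis-expressed DM domain factor, lies beside Lypd4: their annotated ends are at 24869941 and 24870057 on chromosome 7, and Tex101 lies at chr7:24668007-24676675. Dmrtc2 stood at 59.98 and 55.7 FPKM in the L3mbtl2 knockout and 4.33 and 3.48 in the Pcgf6 knockout, with wild type at 0.60 to 0.72, a difference of 3.86 ± 0.12 (adjusted p = 7.29e-07). Taf7l, the germ cell paralog of a TFIID subunit, stood at 126 FPKM in each L3mbtl2 knockout library and 7.96 and 8.62 in the Pcgf6 knockout. Dazl, an RNA-binding protein needed for germ cell development, stood at 70.9 and 73.6 against 5.47 and 5.70. Wild type held both under 1.4 FPKM, so the order wild type, Pcgf6 knockout, L3mbtl2 knockout was shared by Tex101, Dmrtc2, Taf7l and Dazl. For these genes wild type did not overlap the Pcgf6 knockout. The limma differences were 3.91 ± 0.13 for Taf7l and 3.67 ± 0.21 for Dazl (adjusted p = 9.22e-07 and 7.31e-06).

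The other genes among the 15 largest higher in the L3mbtl2 knockout were Akr1c21, Ube2dnl1, Ddx3y, Eif2s3y, Aspa, Cyp2b23, Msc, Majin, Lrrn2 and Ccdc152, at log2 differences from 3.43 to 5.29. Majin, which ties meiotic telomeres to the nuclear envelope, stood at 9.01 and 8.94 FPKM against 0.45 and 0.88. Ddx3y and Eif2s3y are on the Y chromosome, Aspa is on the displaced chromosome 11, and Msc and Lrrn2 are on chromosome 1.

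The largest differences toward the Pcgf6 knockout also included genes of germ cells and reproduction, among them Rhox5, Syce1 and Fkbp6. Rhox5, a homeobox gene of the X-linked reproductive cluster, stood at 22.9 and 23.1 FPKM in the L3mbtl2 knockout, 293 and 297 in the Pcgf6 knockout and 27.2 to 31.3 in wild type. Syce1, a central element protein of the synaptonemal complex, stood at 3.05 and 2.82 in the L3mbtl2 knockout, 45.3 and 45.9 in the Pcgf6 knockout and 3.66 to 3.83 in wild type. For these genes only the Pcgf6 knockout stood apart from wild type by more than 2-fold. The differences were -3.67 ± 0.06 (adjusted p = 1.01e-07) and -3.91 ± 0.06 (adjusted p = 6.7e-08).

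Cldn4 and Klhl13 were instead lowest in the L3mbtl2 knockout. Cldn4, a tight junction claudin, stood at 3.15 and 3.97 FPKM in the L3mbtl2 knockout, 54.0 and 56.5 in the Pcgf6 knockout and 73.4 to 78.7 in wild type (difference -3.93 ± 0.10, adjusted p = 3.03e-07). Klhl13, an adaptor of a cullin ubiquitin ligase, stood at 4.02 and 3.77 in the L3mbtl2 knockout and 45.4 in each Pcgf6 knockout library. Its wild type level of 296 to 317 was above both, so that Klhl13 was lower in each knockout and lowest without L3mbtl2 (difference -3.51 ± 0.04, adjusted p = 6.7e-08). The rest of these 15 genes were Zscan4f, Mt4, Mid1, Fkbp6, Sap18b, Nccrp1, Prr23a2, Gstm3, Xlr3a, Ap1m2 and Xlr5a, at -4.43 to -3.42. Members of the Zscan4, Xlr, Rhox and Sap18 families have near-identical copies, and how reads were shared among copies is not known here, so their single-gene values are uncertain.

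**Figure D3:**
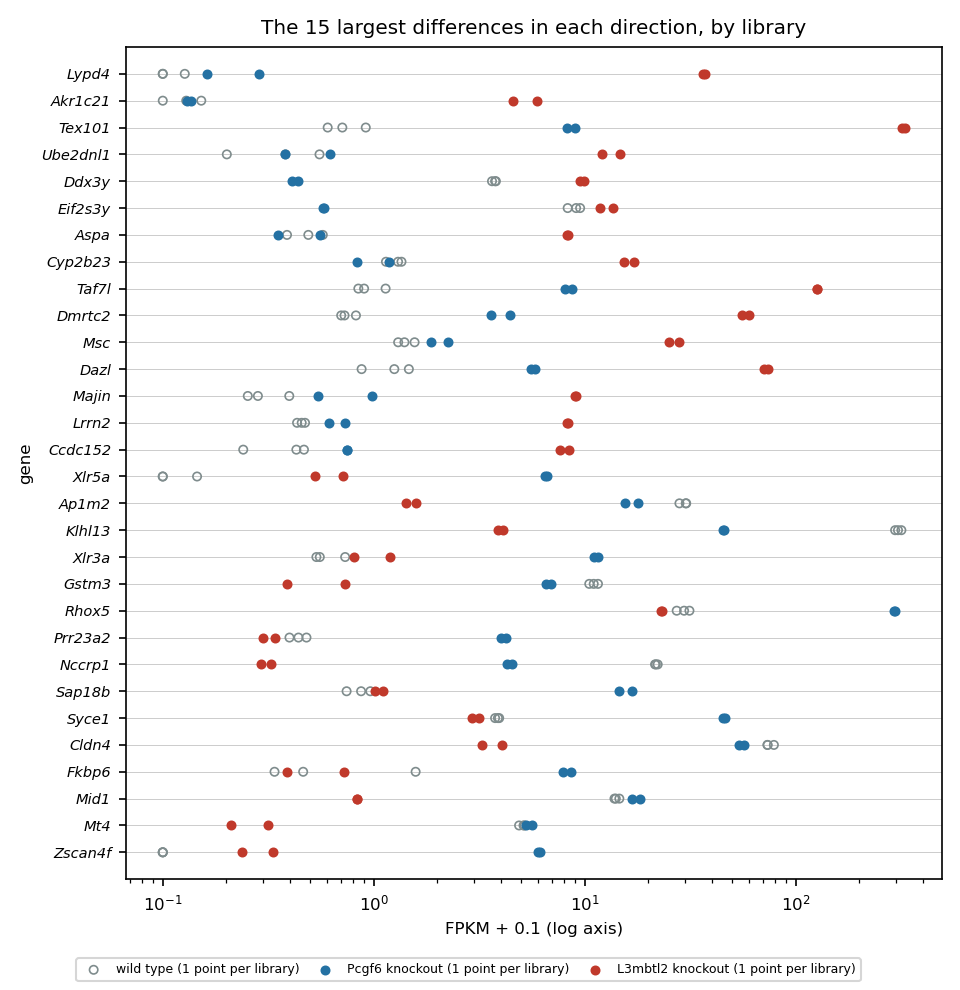
FPKM + 0.1 (log axis) of the 15 genes with the largest difference in each direction, 1 point per library: L3mbtl2 knockout red, Pcgf6 knockout blue, wild type open grey. By the rule that chose them, the upper 15 genes have both red points above both blue points and the lower 15 the reverse. Wild type lies near blue for some genes and near red for others.

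The subunits of PRC1.6 itself differed, mostly by less than 2-fold. All 14 listed members were tested, with 8 higher in the L3mbtl2 knockout and 5 higher in the Pcgf6 knockout, and 3 past 2-fold: the deleted genes and Rnf2. After GC adjustment the counts were 5 and 6, and the median turned from 0.15 to -0.09. Rnf2, the main H2A ubiquitin ligase, stood at 50.4 and 49.7 FPKM against 25.1 and 24.6 (1.01 ± 0.06, adjusted p = 1.19e-05). It is on chromosome 1, and its difference was 0.60 after GC adjustment. Tfdp1, the partner of E2F6, was lower in the L3mbtl2 knockout at 71.5 and 70.0 against 140 and 132 (-0.94 ± 0.04, adjusted p = 1.31e-06), and its difference was -1.13 after GC adjustment. E2f6 stood at 27.8 and 28.7 against 18.6 and 20.9 FPKM, with wild type at 11 to 11.3. Mga stood at 21.6 and 21.5 against 14.5 and 14.1 (0.59 ± 0.06, adjusted p = 0.000172), a difference of 0.22 after GC adjustment. The small differences of Max, Rybp and Cbx3 changed sign with GC adjustment, and that of Max also with other library scalings.

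Among 30 tested subunits of other Polycomb complexes, 14 were higher in the L3mbtl2 knockout and 10 higher in the Pcgf6 knockout, with a median of 0.12. The 3 past 2-fold were all higher in the Pcgf6 knockout and included Phf19, a PRC2 accessory protein (1.25 and 1.46 against 4.37 and 3.79 FPKM), and Sfmbt2, an imprinted MBT domain gene (0.54 and 0.44 against 1.36 and 1.52). Wild type exceeded both knockouts for these 2 genes. Suz12, a PRC2 core subunit, stood at 92.9 and 91.1 against 49.7 and 48.8 FPKM (0.90 ± 0.04, adjusted p = 3.7e-06), and it is on chromosome 11. Its difference was 0.49 after GC adjustment.

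Of 20 genes for DNA methylation and H3K9 methylation, 6 were higher in the L3mbtl2 knockout and 11 higher in the Pcgf6 knockout. Ehmt2, which encodes the H3K9 methyltransferase G9a, stood at 13.2 and 13.6 FPKM in the L3mbtl2 knockout and 42.0 and 41.9 in the Pcgf6 knockout, the latter within the wild type range of 41.5 to 44.9 (-1.63 ± 0.04, adjusted p = 4.19e-07). Tet2, a 5-methylcytosine dioxygenase, was opposite at 18.3 and 17.9 against 6.06 and 5.77 (1.6 ± 0.06, adjusted p = 1.49e-06), above wild type at 4.13 to 4.50. Dnmt3b, a de novo DNA methyltransferase, stood at 33.4 and 33.6 against 64.7 and 64.3, and wild type matched the latter at 64.1 to 65.8. These were called genes in both directions, and only Ehmt2 and Tet2 of the 20 passed 2-fold.

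Germ cell genes differed in both directions. The 5 germ cell lists together held 101 genes, of which 88 were tested. Of these 39 were higher in the L3mbtl2 knockout and 28 higher in the Pcgf6 knockout, beside 36.2% and 30.5% of all tested genes. Past 2-fold were 29 and 19, against the backgrounds of 9.39% and 9.27% of all tested genes. The median over the 88 was 0.23. These counts and this median are not adjusted for GC content. Before adjustment the medians of the 5 lists, in the order below, were 0.01, 0.22, 0.39, 0.19 and 0.25. After GC adjustment they were -0.17, -0.11, 0.17, 0.05 and -0.02. In 17 of the 29 the Pcgf6 knockout also lay at least 2-fold above wild type, and in 11 it lay within 2-fold of it. In 11 of the 19 higher in the Pcgf6 knockout, the L3mbtl2 knockout lay within 2-fold of wild type. These are bulk libraries, in which more cells with a transcript and more transcript per cell cannot be told apart.

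Of 17 tested genes for the synaptonemal complex and meiotic cohesin, 7 were higher in each knockout, 5 of them past 2-fold in each direction, with a median of 0.01. After GC adjustment 3 and 6 were past 2-fold with a median of -0.17, and the median off chromosomes 1, 11, 16 and Y was -0.18. Beside Majin, the cohesin subunit Stag3 was higher in the L3mbtl2 knockout at 12.3 and 11.2 against 4.66 and 4.53 FPKM, and the central element gene Syce3 at 8.61 and 7.46 against 3.66 and 4.11. The central element genes Syce1 and 4930447C04Rik were higher in the Pcgf6 knockout, the latter at 4.35 and 3.96 against 8.79 and 8.80. Proteins of the same structure were thus found on both sides. Hormad1, an axis protein whose promoter is shown above, stood at 1.85 and 1.93 against 6.70 and 4.84 (-1.54 ± 0.22, adjusted p = 0.000665).

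Of 13 meiotic recombination genes, 5 were higher in each knockout, 4 and 3 of them past 2-fold. After GC adjustment 2 and 3 were past 2-fold, and the median turned from 0.22 to -0.11. Zcwpw1, a histone methylation reader of meiotic hotspots, stood at 44.4 and 43.5 FPKM in the L3mbtl2 knockout, 4.19 and 4.49 in the Pcgf6 knockout and 2.38 to 2.65 in wild type (3.31 ± 0.07, adjusted p = 1.82e-07). Dmc1, the meiotic strand exchange protein, stood at 15.4 and 15.9 against 7.13 and 7.63, a difference of 1.07 that was 0.71 after GC adjustment. Mei1, needed for meiotic DNA breaks, was opposite at 0.33 and 0.31 against 2.22 and 2.04 (-2.41 ± 0.27, adjusted p = 0.0002), with wild type at 0.08 to 0.17. Brip1, a helicase at 7.84 and 7.68 against 3.00 and 3.08, is on chromosome 11, and its difference of 1.32 was 0.94 after GC adjustment.

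The piRNA pathway, which silences transposons in the germ line, leaned to the L3mbtl2 knockout: of 21 tested genes 10 were higher there and 3 higher in the Pcgf6 knockout, with a median of 0.39. Off chromosomes 1, 11, 16 and Y the median of the remaining 16 was 0.22, and after GC adjustment 9 and 5 genes were called. Ddx4, the germ cell helicase VASA, stood at 158 and 153 FPKM against 42.0 and 45.0, with wild type at 9.21 to 10.2 (1.84 ± 0.06, adjusted p = 6.54e-07). Mael stood at 167 and 164 against 47.4 and 45.1 and Tex19.1 at 304 and 315 against 89.0 and 97.3, on chromosomes 1 and 11. Both knockouts stood above wild type for Ddx4 and Mael, the L3mbtl2 knockout furthest. The 3 genes higher in the Pcgf6 knockout were Fkbp6, Mov10l1 and Tdrd1, all past 2-fold. Fkbp6, a chaperone of piRNA loading, stood at 0.29 and 0.62 against 7.76 and 8.51, the helicase Mov10l1 at 2.81 and 3.00 against 14.1 in each library, and the tudor protein Tdrd1 at 1.6 and 1.44 against 4.01 and 3.78. Wild type Fkbp6 varied from 0.24 to 1.48, which gives its difference of -3.96 the wide SE of 0.68 (adjusted p = 0.00159). Mov10l1 was named after its values were seen.

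Regulators of germ cell RNA and meiotic entry split 9 to 7 among 19 tested, with 7 and 4 past 2-fold. Their median was 0.19, and -0.05 off chromosomes 1, 11, 16 and Y. Beside Taf7l, Dmrtc2 and Dazl, the TFIID subunit paralog Taf9b stood at 16.6 and 15.7 FPKM against 1.74 and 1.98, with wild type under 0.8 (3.05 ± 0.11, adjusted p = 1.21e-06). Stk31, a testis kinase-like protein, stood at 21.6 and 21.8 against 6.50 and 7.30 (1.64 ± 0.16, adjusted p = 8.44e-05). Tfap2c, a transcription factor of germ cell precursors and trophoblast, was lower in the L3mbtl2 knockout at 12.8 in each library against 30.2 and 31.1, and the Pcgf6 knockout matched wild type at 30.3 to 32.2 (-1.25 ± 0.04, adjusted p = 7.08e-07).

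The testis list split 8 to 6 among 18 tested, with 6 and 4 past 2-fold. Its median was 0.25, and -0.02 after GC adjustment. Hsf5, a heat shock factor of spermatocytes, stood at 20.6 and 19.7 FPKM against 2.31 and 2.09, and Tex14, of germ cell bridges, at 8.25 and 7.87 against 2.88 and 3.27. Both are on chromosome 11, where the median displacement was 0.41, and their differences were 3.14 and 1.36. Ldhc, the germ cell lactate dehydrogenase, was higher in the Pcgf6 knockout at 0.21 and 0.17 against 1.83 and 1.76, with wild type at 0.31 to 0.45.

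**Figure D4:**
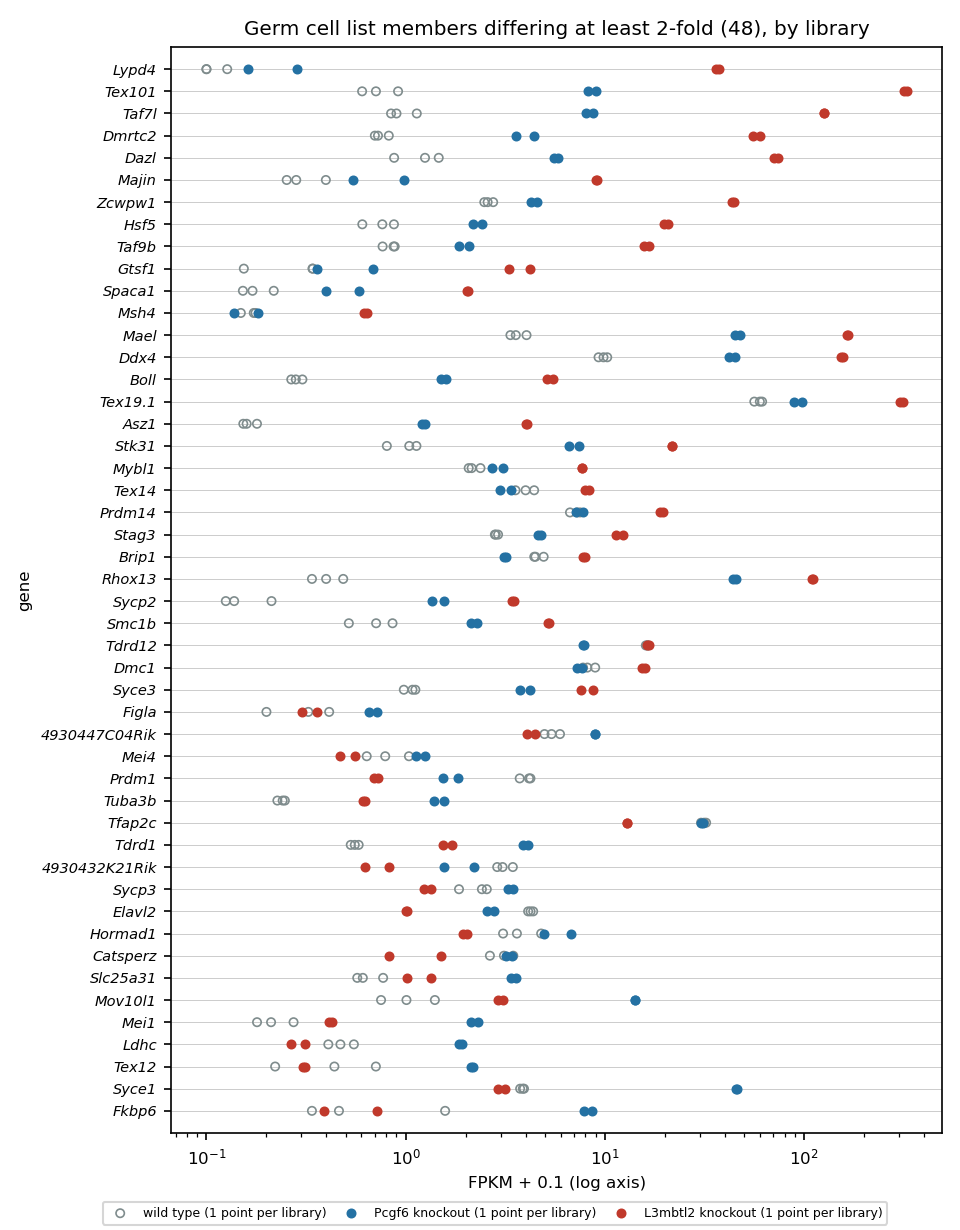
FPKM + 0.1 (log axis) of the 48 members of the germ cell lists that differed at least 2-fold, 1 point per library: L3mbtl2 knockout red, Pcgf6 knockout blue, wild type open grey. The upper 29 genes are higher in the L3mbtl2 knockout, often with blue between grey and red, and the lower 19 are higher in the Pcgf6 knockout.

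The Rhox homeobox cluster on the X chromosome was split within itself. Of 7 tested genes, 5 were higher in the Pcgf6 knockout and 2 higher in the L3mbtl2 knockout, with a median of -1.25. Rhox6 stood at 2.63 and 2.11 FPKM against 17.0 and 20.4 and Rhox9 at 0.41 and 0.35 against 4.78 and 4.77, with wild type between the knockouts for each (-2.93 ± 0.14 and -3.35 ± 0.15, adjusted p = 3.36e-06 and 2.76e-06). Rhox13 went the other way at 111 and 110 against 45.5 and 43.7, and wild type held 0.24 to 0.39 (1.30 ± 0.15, adjusted p = 0.000195). Both knockouts thus stood above wild type for Rhox13, and only the Pcgf6 knockout stood above wild type for Rhox5, Rhox6 and Rhox9. Rhox10 is counted among the 5 on an adjusted p of 0.04996, just inside the threshold, and its call was lost in 11 of 22 other settings, with an adjusted p of up to 0.48 (pseudocount of 0.01) and 0.20 without L3mbtl2 knockout replicate 2. The call of Rhox2a was lost with that pseudocount (adjusted p = 0.14), without L3mbtl2 knockout replicate 2 (0.085) and without Pcgf6 knockout replicate 2 (0.060).

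Genes of the 2-cell embryo, which flicker on in rare embryonic stem cells, were mostly higher in the Pcgf6 knockout. Of 14 tested, 12 were higher there, all past 2-fold, and 1 was higher in the L3mbtl2 knockout, with a median of -3.19. Zscan4f, of a telomere-lengthening family, stood at 0.14 and 0.23 FPKM in the L3mbtl2 knockout and 5.90 and 6.05 in the Pcgf6 knockout, and was listed at 0 in all 3 wild type libraries (-4.43 ± 0.27, adjusted p = 9.94e-06). Zscan4c stood at 0.09 and 0.04 against 4.12 and 3.55, Zscan4d at 0.13 and 0.17 against 2.25 and 1.64, and the deubiquitinase gene Usp17le at 0.29 and 0.16 against 3.23 and 3.05. The knockouts did not overlap for these 4 genes, as for 84.4% of all tested genes, and for Zscan4f this was a condition of its choice. The same 4 genes reached the 0.5 FPKM needed for testing only in the Pcgf6 knockout, so they could only be called higher there. The count of 12 and the median are thus partly set by the filter. The levels are low, 1 read at 2 kb being 0.019 to 0.026 FPKM, and copies of both families are nearly identical.

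The list of naive and general pluripotency genes differed in both directions, 19 higher in the L3mbtl2 knockout and 11 higher in the Pcgf6 knockout among 32, with a median of 0.20. Nanog stood at 601 and 599 FPKM in the L3mbtl2 knockout, 218 and 219 in the Pcgf6 knockout and 142 to 146 in wild type (1.46 ± 0.03, adjusted p = 1.44e-07). Nr5a2, a nuclear receptor that supports Oct4 expression, stood at 38.1 and 39.0 against 13.5 and 13.0, and Tfcp2l1, a factor of the naive state, at 75.4 and 76.0 against 39.0 and 38.4. Both are on chromosome 1, and their differences after GC adjustment were 1.35 and 0.77. Klf2 was opposite at 116 and 117 against 362 and 363, below wild type at 536 to 625 in each knockout (-1.64 ± 0.06, adjusted p = 1.55e-06). Dppa3, a maternal factor named after its values were seen, followed Klf2 at 10.4 and 11.3 against 27.1 and 29.5 (-1.37 ± 0.06, adjusted p = 2.56e-06).

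Primed epiblast genes split 9 to 11 among 20, with a median of -0.57. Zic2 stood at 42.9 and 44.8 FPKM in the L3mbtl2 knockout and 12.5 and 11.9 in the Pcgf6 knockout, on either side of wild type at 21.2 to 22.6 (1.84 ± 0.05, adjusted p = 3.9e-07). The signalling ligand Nodal likewise stood at 94.6 and 91.6 against 33.6 and 37.6, around wild type at 42.3 to 42.4 (1.39 ± 0.05, adjusted p = 1.31e-06). Otx2, a factor of exit from the naive state, was opposite at 0.40 and 0.41 against 2.94 and 2.69, around wild type at 1.05 to 1.17 (-2.53 ± 0.13, adjusted p = 5.36e-06). For these 3 genes the knockouts departed from wild type in opposite directions.

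Epithelial genes were lower in the L3mbtl2 knockout almost throughout. Of 30 tested keratins, junction proteins and their regulators, 27 were higher in the Pcgf6 knockout, 18 past 2-fold, and 1 was higher in the L3mbtl2 knockout, with a median of -1.27. After GC adjustment 26 and 1 were called with a median of -1.22. Relative to wild type the list's medians were -1.75 in the L3mbtl2 knockout and -0.56 in the Pcgf6 knockout. Epcam, an adhesion molecule of epithelia and stem cells, stood at 21.3 and 21 FPKM against 89.8 and 91.2, with wild type at 133 to 135 (-2.09 ± 0.03, adjusted p = 6.7e-08). Krt19 stood at 0.89 and 0.91 against 7.66 and 7.85, with wild type at 28.9 to 31.9, on chromosome 11. Ap1m2, a subunit of the epithelial sorting adaptor, stood at 1.48 and 1.32 against 15.4 and 17.7. The keratin pair Krt8 and Krt18, chosen after their values were seen, stood at 6.71 to 11.2 in the L3mbtl2 knockout, 21.6 to 23.7 in the Pcgf6 knockout and 149 to 177 in wild type, so both knockouts lay far below wild type and the L3mbtl2 knockout lowest.

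Trophoblast markers went the same way in smaller number: of 14 tested, 7 were higher in the Pcgf6 knockout, 6 past 2-fold, and 1 was higher in the L3mbtl2 knockout. Their median was -0.36. After GC adjustment 4 were past 2-fold toward the Pcgf6 knockout and the median was -0.26. Bmp4, a ligand that patterns the early embryo, stood at 6.19 and 6.09 FPKM against 22.8 and 23, with wild type at 3.90 to 4.27 (-1.88 ± 0.06, adjusted p = 6.54e-07). Tead4, which specifies trophectoderm, stood at 4.27 and 5.14 against 11.4 and 12. Of 25 endoderm genes 8 were higher in each knockout, near the 36.2% and 30.5% of all tested genes, with a median of 0.06. Apoe, a lipoprotein made by visceral endoderm among many cells, stood at 102 and 104 against 722 and 747, with wild type at 487 to 540 (-2.83 ± 0.05, adjusted p = 1.16e-07). Laminin Lama1 stood at 6.51 and 6.66 against 15.6 and 15.8. Opposite to these, Sparc on chromosome 11 stood at 299 and 300 against 203 and 200. Laminin Lamc1 on chromosome 1 was also opposite, at 88.7 and 87.9 against 64.8 and 64.9.

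Of 13 tested mesoderm genes 2 were higher in the L3mbtl2 knockout and 5 higher in the Pcgf6 knockout, and of 9 tested neural genes 3 and 6, beside 36.2% and 30.5% of all tested genes. The medians of these lists were -0.67 and -0.70, and -0.28 and -0.39 after GC adjustment. T, the primitive streak factor brachyury, stood at 0.38 and 0.28 FPKM against 1.21 and 2.25 (-2.03 ± 0.30, adjusted p = 0.000792). Sox11, of neural progenitors, stood at 1.98 and 1.73 against 7.04 and 7.06, and the Pcgf6 knockout matched wild type at 6.96 to 7.33 (-1.87 ± 0.08, adjusted p = 1.98e-06). The neuronal tubulin gene Tubb3, the most abundant of the neural list, was opposite at 82.0 and 83.9 against 57.3 and 55.2 (0.56 ± 0.04, adjusted p = 3.11e-05). Of 38 Hox genes in the files 11 were tested, and 2 were higher in the L3mbtl2 knockout and 1 higher in the Pcgf6 knockout. The call of Hoxc13 was lost without either L3mbtl2 knockout library or without Pcgf6 knockout replicate 1 (adjusted p = 0.065 to 0.096), and that of Hoxb7 without either Pcgf6 knockout library (adjusted p = 0.055 and 0.078).

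Imprinted genes, expressed from the maternal or the paternal copy, were also lower in the L3mbtl2 knockout. Of 28 tested, 25 were higher in the Pcgf6 knockout, 17 past 2-fold, and 1 was higher in the L3mbtl2 knockout, with a median of -1.09. The medians against wild type were -0.82 in the L3mbtl2 knockout and 0.03 in the Pcgf6 knockout. Phlda2, a maternally expressed brake on placental growth, stood at 15.5 and 13.9 FPKM against 83.3 and 86.7, with wild type at 159 to 164 (-2.53 ± 0.05, adjusted p = 1.82e-07). Peg3, a paternally expressed zinc finger gene, stood at 3.21 and 3.30 against 18.4 and 18.2, with wild type at 16.9 to 19 (-2.45 ± 0.06, adjusted p = 3.53e-07). Igf2, the fetal growth factor, stood at 4.25 and 4.14 against 9.06 and 9, and at 38.8 to 39.5 in wild type. Grb10, an adaptor that restrains growth, stood at 7.37 and 7.27 against 18.8 and 18.7 on chromosome 11. Maternally and paternally expressed genes were thus both lower. The list's median was -1.14 after GC adjustment.

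**Figure D5:**
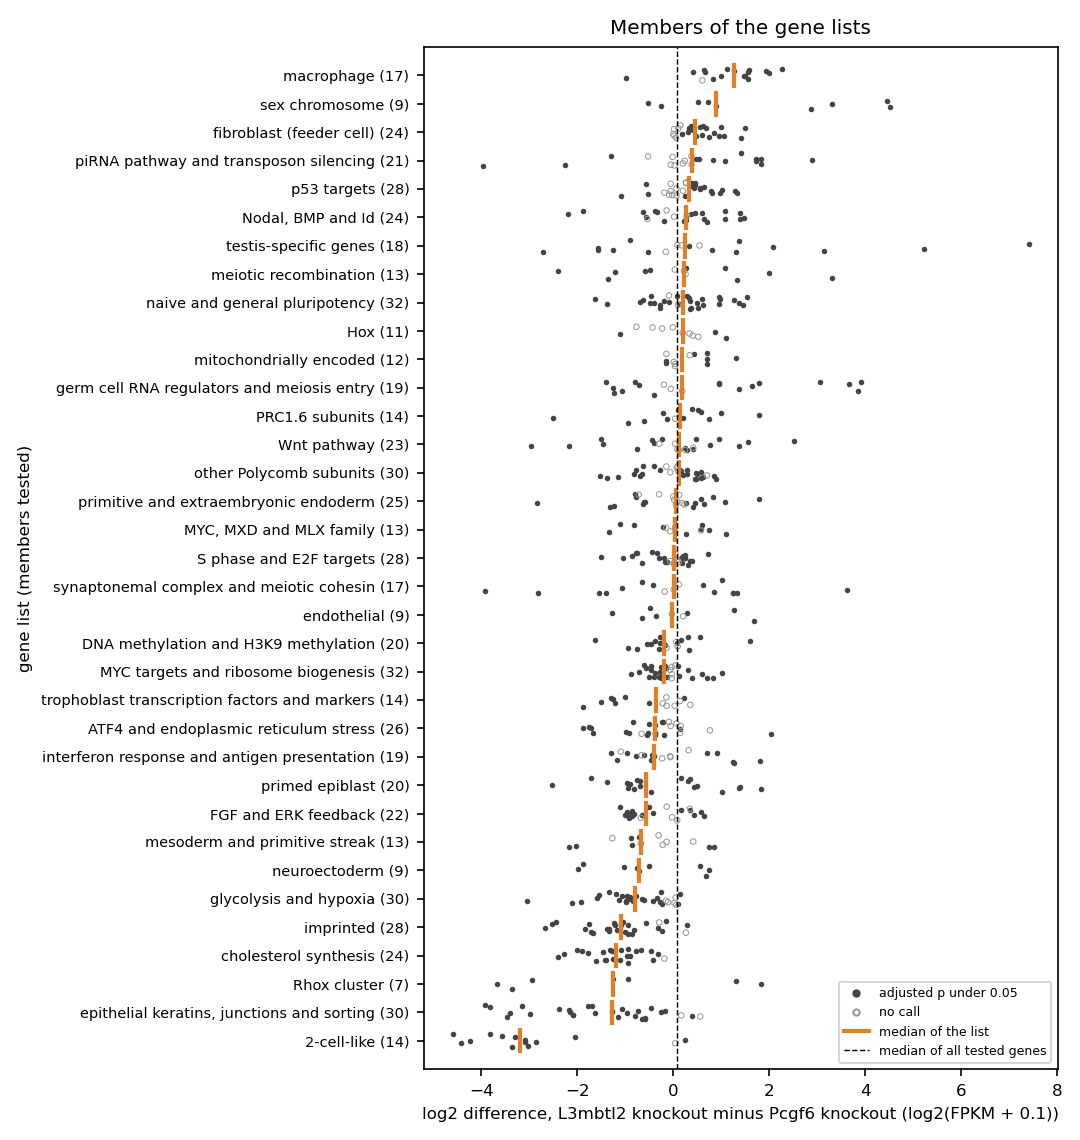
Log2 difference (L3mbtl2 knockout minus Pcgf6 knockout) of each tested member of the 35 lists; filled points have an adjusted p under 0.05, orange bars are list medians and the dashed line is the median of all tested genes, 0.07. The 2-cell, epithelial, cholesterol, imprinted and glycolysis lists lie to the left, and the macrophage list lies to the right. Vertical scatter within a list has no meaning.

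Genes of cholesterol synthesis and of glycolysis were mostly lower in the L3mbtl2 knockout than in the Pcgf6 knockout. Of 24 genes of cholesterol synthesis and uptake, 23 were higher in the Pcgf6 knockout, 14 past 2-fold, and the 1 left was not called, with a median of -1.18. The medians against wild type were -0.99 in the L3mbtl2 knockout and 0.26 in the Pcgf6 knockout. Dhcr7, which makes the final step, stood at 9.78 and 9.66 against 38.0 and 35.7, with wild type at 33.4 to 35.2 (-1.91 ± 0.04, adjusted p = 2.65e-07). The squalene synthase gene Fdft1, at 24.5 and 22.9 against 59.8 and 59.0, and the sterol oxidase gene Msmo1, at 7.54 and 7.38 against 20.4 and 20.9, followed.

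Of 30 genes for glycolysis and the hypoxia response, 23 were higher in the Pcgf6 knockout, 9 past 2-fold, and 2 higher in the L3mbtl2 knockout, with a median of -0.80 and of -0.70 after GC adjustment. Ldha, which turns pyruvate into lactate, stood at 187 and 191 FPKM against 561 and 571, with wild type at 417 to 435 (-1.58 ± 0.03, adjusted p = 1.66e-07). Aldoa, the main aldolase, stood at 261 and 262 against 519 and 520. Egln3, an oxygen-sensing hydroxylase, showed the largest of the differences at 3.29 and 2.85 against 25.5 and 26.9, with wild type at 20.2 to 24.8 (-3.05 ± 0.10, adjusted p = 9.44e-07). Pfkl, a phosphofructokinase, and Pdk1, which holds pyruvate from mitochondria, were lower by 1.33 and 1.19 on the same log2 scale.

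In the list of ATF4 targets and endoplasmic reticulum stress genes, 17 of 26 were higher in the Pcgf6 knockout and 2 higher in the L3mbtl2 knockout, with a median of -0.38. The cystine transporter gene Slc7a11, named after its values were seen, was the 1 gene past 2-fold in the latter direction, at 0.75 and 0.77 FPKM against 0.10 and 0.12. Phgdh, the entry enzyme of serine synthesis, stood at 28.4 and 30.1 FPKM against 94.2 and 97.2, with wild type at 102 to 106 (-1.71 ± 0.04, adjusted p = 2.33e-07). Asns, the asparagine synthetase gene, stood at 57.8 and 56.2 against 102 in each library, with wild type at 98.9 to 101. Trib3, a stress pseudokinase, stood at 5.75 and 6.33 against 20.2 and 21.2. The Pcgf6 knockout was within 2-fold of wild type for these 3 genes.

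Of 32 ribosome biogenesis and MYC target genes 19 were higher in the Pcgf6 knockout and 8 higher in the L3mbtl2 knockout, with a median of -0.19 and 1 gene past 2-fold. That gene, Nop58 of box C/D ribonucleoproteins, is on chromosome 1, as are Ncl and Wdr12, which were also higher in the L3mbtl2 knockout. Fbl, the methyltransferase of the same particles, stood at 165 and 162 FPKM against 267 and 265 (-0.70 ± 0.04, adjusted p = 4.45e-06). S phase genes split 10 to 12 among 28, beside 36.2% and 30.5% of all tested genes, with a median of 0.02. After GC adjustment they split 7 to 15 with a median of -0.20. Ccne1, or cyclin E, was among the 2 past 2-fold at 29.7 and 29.4 against 83.1 and 85.0, with wild type at 77.1 to 78.7 (-1.51 ± 0.03, adjusted p = 1.51e-07). The other was Rrm2, the ribonucleotide reductase subunit, at 64.6 and 61.6 against 129 and 132.

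Targets of p53 leaned to the L3mbtl2 knockout, 15 higher there and 3 higher in the Pcgf6 knockout among 28, with a median of 0.33. After GC adjustment the counts were 14 and 7 and the median was 0.17. Mdm2, the ligase that restrains p53, stood at 41.2 and 39.6 FPKM against 20.4 and 20.7, around wild type at 27.6 to 30.8 (0.97 ± 0.05, adjusted p = 6.7e-06). Ccng1, a cyclin induced by p53, stood at 110 and 107 against 45.0 and 43.0, on chromosome 11. Bbc3, the death effector PUMA, was opposite at 5.94 and 6.46 against 13.6 and 12.8 (-1.08 ± 0.06, adjusted p = 7.32e-06).

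Of 24 Nodal, BMP and Id genes, 13 were higher in the L3mbtl2 knockout and 7 higher in the Pcgf6 knockout. The activin subunit Inhba stood at 13.8 and 13.7 FPKM against 4.85 and 4.93 and the BMP antagonist Grem1 at 42.2 and 44.7 against 16.9 and 16.2. The ligand Bmp7 stood at 0.53 and 0.60 against 3.30 and 2.63, with wild type at 2.09 to 2.44. Between the knockouts, Nodal and Inhba were thus higher without L3mbtl2, and Bmp4 and Bmp7 higher without Pcgf6. Against wild type Bmp7 was at -1.79 (log2) in the L3mbtl2 knockout and 0.40 in the Pcgf6 knockout, and Bmp4 at 0.59 and 2.47. Of 22 FGF and ERK feedback genes 12 were higher in the Pcgf6 knockout and 5 higher in the L3mbtl2 knockout, and the inhibitor Spry4 stood at 14.5 and 16.1 against 29.3 and 28.8 (-0.92 ± 0.05, adjusted p = 8.19e-06). Of 23 Wnt genes 9 and 8 were higher in the L3mbtl2 and the Pcgf6 knockout, near the 36.2% and 30.5% of all tested genes. Their median was 0.12, and -0.24 off chromosomes 1, 11, 16 and Y. After GC adjustment it was 0.36 instead, with 11 and 7 genes called. The target factor Sp5 stood at 0.56 and 0.50 against 4.59 and 5.04 (-2.97 ± 0.14, adjusted p = 3.75e-06), whereas the Wnt deacylase Notum, on chromosome 11, stood at 17.0 and 17.1 against 2.34 and 3.54.

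Interferon and antigen presentation genes split 5 to 8 among 19, beside 36.2% and 30.5% of all tested genes. The class I heavy chain gene H2-D1 stood at 34.9 and 35.0 FPKM against 14.1 and 14.7, with wild type at 18.7 to 20.02 (1.27 ± 0.05, adjusted p = 1.07e-06). The tether Bst2 was opposite at 30.3 and 26.9 against 59.8 and 69.5 (-1.17 ± 0.12, adjusted p = 0.000136).

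Markers of macrophages and fibroblasts were mostly higher in the L3mbtl2 knockout, and those of endothelium went both ways. Of 17 tested macrophage genes 15 were higher there, 10 past 2-fold, and 1 higher in the Pcgf6 knockout, with a median of 1.27. Their summed level was 530 to 546 FPKM in the L3mbtl2 knockout, 277 to 279 in the Pcgf6 knockout and 194 to 200 in wild type, and none of the 20 listed genes was at 0 in all 4 knockout libraries. Lyz2, the macrophage lysozyme, made up most of it at 315 and 305 against 153 and 159. The surface receptor Adgre1, or F4/80, stood at 4.28 and 4.55 against 1.15 and 1 (1.94 ± 0.11, adjusted p = 5.82e-06), and Laptm5 was the exception at 19.9 and 19.7 against 40.7 and 38.2. Of 24 fibroblast genes, which mark feeder cells, 18 were higher in the L3mbtl2 knockout and the other 6 were not called, with a median of 0.45 and summed levels of 818 to 841, 626 to 628 and 680 to 689 FPKM. Dcn, the proteoglycan decorin, stood at 50.5 and 48.4 against 17.6 and 17.0, around wild type at 20.6 to 22.5. Of 9 tested endothelial genes 3 were higher in the L3mbtl2 knockout and 4 higher in the Pcgf6 knockout, beside 36.2% and 30.5% of all tested genes. Their median was -0.03. After GC adjustment 3 and 2 were called, with a median of -0.17. The summed level of the 13 listed endothelial genes was 57.8 to 58.8 FPKM in the L3mbtl2 knockout. It was 37.8 to 39.9 in the Pcgf6 knockout and 45.5 to 47.9 in wild type. The part of such cells in the other results was not tested.

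Of 9 tested genes of the Y chromosome, 7 were at least 2-fold higher in the L3mbtl2 knockout. Gm47283, named after its values were seen, went the other way at 3.30 and 2.59 FPKM against 6.70 and 5.33 (-1.01 ± 0.14, adjusted p = 0.000678). The RNA helicase Ddx3y stood at 9.44 and 9.87 FPKM in the L3mbtl2 knockout, 0.34 and 0.31 in the Pcgf6 knockout and 3.54 to 3.69 in wild type (4.53 ± 0.09, adjusted p = 1.51e-07). Kdm5d, a Y-linked histone demethylase, stood at 0.88 and 0.80 against 0.02 and 0.03, with wild type at 0.91 to 0.99. Eif2s3y and Uty showed the same order of knockouts. Xist was low in all, at 2.11 and 2.32 against 1.20 and 1.09.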

How the data were processed

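RNA-seq was done on total RNA of mouse embryonic stem cells, with a kit that does not mark strand. The deposited values are FPKM per Ensembl gene, 1 file per library, and were used as the authors deposited them. Per the submitters' processing notes the tools included TopHat2 2.0.12, Bowtie2 2.2.3 and HTSeq 0.6.0 on GRCm38. Each file lists 30460 genes, of which 30250 matched a GENCODE M21 symbol. No row without a gene was present. FPKM are relative within a library, so a displaced group of genes shifts the others.

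Read depth was recovered from FPKM steps; about 87% of values under 50 reads came out whole within 0.05. FPKM are not counts, so differences between the groups were not tested with a count model. Recovered reads served for the counting interval of Lypd4 and for a chi-square comparison of replicates with sampling noise. limma 3.58.1 in R 4.3.3 was fitted to log2(FPKM + 0.1) over 7 libraries (2, 2 and 3; the Mga knockouts left out), with the group alone and a variance prior following the mean. A gene was tested where 2 or more of the 7 libraries reached 0.5 FPKM, and p-values were adjusted by Benjamini-Hochberg over all 14944, at a threshold of 0.05. A gene near 0 elsewhere could pass through 1 knockout alone, as Lypd4 and Zscan4f did, and could then only be higher there. The wild type libraries add residual degrees of freedom. Fold changes are on the log2(FPKM + 0.1) scale, which understates changes of low genes. Replicates of each knockout differed by more than sampling noise, so none was counted as a duplicate. The script was tested on simulated data.

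The comparison and the 35 gene lists were chosen with earlier results of these data known, so list counts are descriptive and no p is given for a list. Named genes are the deleted genes, the 15 largest differences each way (mean of at least 2 FPKM, protein coding, no overlap), and up to 5 members per list by smallest p, or any in lists under 15. Another 10 genes were named after their values were seen. GC content is that of the GENCODE transcripts, adjusted by a loess fit (span 0.3) to each library; 60 tested genes had no value. GC adjustment and the removal of chromosomes 1, 11, 16 and Y were chosen after seeing the data. Gene names and places are those of GENCODE M21 on GRCm38, and promoters those of RefSeq on GRCm38.p6, used where the RefSeq and GENCODE starts were at most 100 bases apart.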

Additional observations from a re-analysis of the deposited data

How the results depend on the processing

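Across 22 alternative settings, all genes called at least 2-fold different that could still be tested kept their direction. Adding or dropping wild type or Mga knockout libraries leaves the log2 difference itself unchanged. So do another filter, another variance prior or dropped chromosomes, and direction could not turn there. These genes were also picked as at least 2-fold different in the same data, so their kept direction is no further support. With all 10 libraries in the fit 4803 genes differed (2616 higher in the L3mbtl2 knockout, 2187 higher in the Pcgf6 knockout), and 49 of 192 named genes lost their call. With a pseudocount of 1 in place of 0.1, 1293 genes differed at least 2-fold (650 and 643). Without every chromosome whose median was displaced by over 0.15, where 8681 genes were tested, 5540 differed (2947 and 2593) and 1459 at least 2-fold (684 and 775). Without chromosomes 1, 11, 16 and Y, 890 genes were at least 2-fold higher in the L3mbtl2 knockout, and 848 with GC adjustment as well. Leaving out single libraries gave 8300 to 10024 differing genes (4293 to 5481 higher in the L3mbtl2 knockout and 3881 to 4543 higher in the Pcgf6 knockout) and 2354 to 2802 at least 2-fold (992 to 1418 and 1225 to 1384). Where an arm was left with 1 library, that library was assumed to vary like the other groups. Max turned to -0.017 and -0.026 with median-of-ratios and upper-quartile scaling, and to -0.081 with GC adjustment. GC adjustment also turned Rybp to -0.10 and Cbx3 to -0.30, or -0.016 and -0.22 without the 4 chromosomes as well, and it ended the calls of Hdac2, Ring1 and Pou5f1. The cause was not tested. Replicate numbers are shared between the knockouts, but the replicates did not pair (correlation of replicate differences 0.07 across 10320 genes, 2 pairs only). A fit with the replicate number as a block called 10045 genes, 2829 at least 2-fold, and with GC adjustment 9492 and 2486, where Max, Rybp and Cbx3 were again at -0.081, -0.10 and -0.30. With 2 libraries per knockout and 1 read worth about 0.02 FPKM at 2 kb, differences among genes below 0.5 FPKM are limited by counting.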
